A study of Homo sapiens with 12 samples.

Results

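The response of SSP-25 cells to LKB1 knockdown was set against the mean response of HuH-28 and RBE cells. SSP-25, HuH-28 and RBE are established human intrahepatic cholangiocarcinoma (ICC) lines, a cancer of the bile ducts inside the liver. Each line was transfected for 48 h with siRNA against LKB1 (gene symbol STK11) or with a scrambled control siRNA, and RNA was sequenced from 2 libraries of each of the 6 groups, 12 in all. The groups were therefore SSP-25 with LKB1 siRNA and SSP-25 with control siRNA, HuH-28 with LKB1 siRNA and HuH-28 with control siRNA, and RBE with LKB1 siRNA and RBE with control siRNA. HuH-28 cells grew in a different medium from the other lines, so line and medium cannot be told apart there, and each line stands for a single tumor. The study numbers the 2 libraries of a group as a first and a second test without saying whether these were separate cultures, so the p-values speak only of how far these libraries vary, which may be technical.

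Expression was read as signal, the normalized reads per kilobase given for each gene. A response was the LKB1 siRNA mean minus the control mean of log2(signal + 0.5), and the difference of responses was the SSP-25 response minus the mean of the HuH-28 and RBE responses. A positive difference means that the gene rose more, or fell less, in SSP-25. It is a difference of log2 values. For genes of low signal the added 0.5 shrinks the response of each line, so the difference can be too small or too large. All 12 libraries entered 1 limma model over the 16146 genes that reached a signal of 1 in 2 or more libraries, and p-values were adjusted over all of them. A gene was called particular to SSP-25 where the difference exceeded 1 in size, its adjusted p was under 0.05, and the SSP-25 response also differed from that of HuH-28 and that of RBE taken singly, in the same direction and each at an adjusted p under 0.05. Gene names are the symbols of the table, which gives no other identifier.

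LKB1 is a serine/threonine kinase and tumor suppressor. With its partners STRAD and MO25 it phosphorylates AMPK, which senses low cellular energy, and a set of related kinases (SIK, NUAK and MARK) that act on cell polarity, adhesion and CREB coactivators. Through AMPK it restrains mTORC1 and lipid synthesis, and in epithelia its loss is known for disturbed polarity and adhesion.

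The 12 libraries were alike in size, with signal sums of 9909640 to 11726700 and 14169 to 14506 genes at a signal of at least 1. The 2 libraries of a group correlated at r = 0.9919 to 0.9936 across genes, and their median absolute log2 difference was 0.15 and 0.1607 in the HuH-28 groups against 0.0784 to 0.0842 in the others. STK11 was 61.8 and 72.8 in SSP-25 cells with LKB1 siRNA, against 464 and 460 with control siRNA. In HuH-28 it was 223 and 207 with LKB1 siRNA, against 698 and 600 with control siRNA. In RBE it was 130 and 156 with LKB1 siRNA, against 485 and 430 with control siRNA. The LKB1 siRNA libraries were lower in every line, without overlap, and the labels held. The fall was deepest in SSP-25, with a response of -2.77 against -1.59 in HuH-28 and -1.68 in RBE, and the difference of responses was -1.14 ± 0.14 (SE, limma adjusted p = 0.000815). Every result on the contrast between lines therefore also moves with the depth of knockdown, whose part in them was not tested.

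Biliary markers were present in SSP-25. KRT7, a keratin of bile duct epithelium, was 8651 and 8983 in SSP-25 cells with LKB1 siRNA, against 6048 and 5759 with control siRNA. CFTR was under 1 in both SSP-25 groups, and EPCAM was under 1 in both HuH-28 groups. Of 6 fibroblast markers, the sum was 547.8 to 576.2 with LKB1 siRNA and 266 to 276.3 with control siRNA in SSP-25, while DCN, a defining fibroblast gene, stayed under 1 in both and DPT was under 1 with control siRNA. The same sum was 10990 to 13500 with LKB1 siRNA and 9058 to 10850 with control siRNA in HuH-28, and 71.94 to 73.19 and 24.55 to 29.27 in RBE. Of 6 leukocyte markers, PTPRC, CD3E and LYZ were under 1 in both SSP-25 groups. The leukocyte list still summed to 1628 to 1644 with LKB1 siRNA and 1892 to 1973 with control siRNA. Of 5 endothelial markers only CDH5 was under 1 in SSP-25, and the sums were 19.1 to 22.35 and 11.88 to 16.94. Of 7 hepatocyte markers TTR and FGB were under 1 in both groups, with sums of 12.23 to 17.66 and 9.047 to 9.298.

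Of the 16146 genes, 374 responded more positively in SSP-25 by more than 1 (2.32%) and 193 more negatively (1.2%). At an adjusted p alone the counts were 1587 (9.83%) and 1708 (10.6%). Particular to SSP-25 were 190 genes that were higher (1.18%) and 86 that were lower (0.533%), 276 in all. Without the limit on size, 637 (3.95%) were higher and 634 (3.93%) lower against each other line, and the lower count of 86 was 55 without SSP-25 control replicate 1. The balance between directions rested on scaling: the counts were 149 higher and 111 lower after quantile normalization, and 253 and 51 after scaling every library to the same sum. The size limit cut through a continuum, since ITGA6 (1.0024) and FHL1 (1.0067) lay just inside and MC1R (0.9989) and GPC6 (0.9965) just outside.

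**Figure D1:**
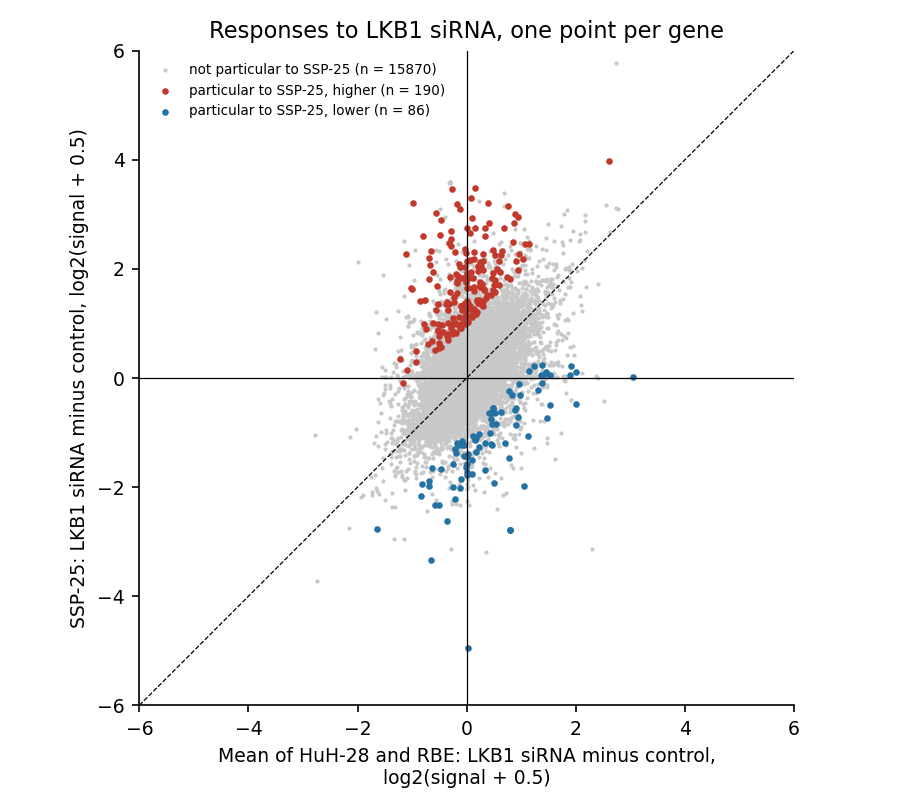
Response to LKB1 siRNA in SSP-25 (vertical axis) against the mean response of HuH-28 and RBE (horizontal axis), both as differences of log2(signal + 0.5), 1 point per gene. The 190 red and 86 blue genes are those particular to SSP-25, and the dashed line marks equal responses. For 110 of the red genes the mean response of the other lines did not pass the test.

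The 276 genes differed in what the other lines did. For 141 of them, 110 higher and 31 lower, the response passed the test in SSP-25 and the mean response of the other lines did not. Another 54 (43 higher, 11 lower) moved in the same direction with a larger response in SSP-25. For 24 genes, of which 20 were lower in SSP-25, the other lines responded and SSP-25 did not pass the test. In 56 the responses were opposite, each past the test on its own, with 33 up in SSP-25 and 23 down. Of the genes particular to SSP-25, 95 of the higher and 36 of the lower ones reached a group mean of 10 in every line. In 58 of the higher and 20 of the lower ones, HuH-28 or RBE stayed under 1 in both groups, so that a response could hardly be seen there. Among all genes tested, without the demand on each line singly, 44 were up in SSP-25 and down on the mean of the others (0.273%) and 29 were down in SSP-25 and up in the others (0.18%).

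**Figure D2:**
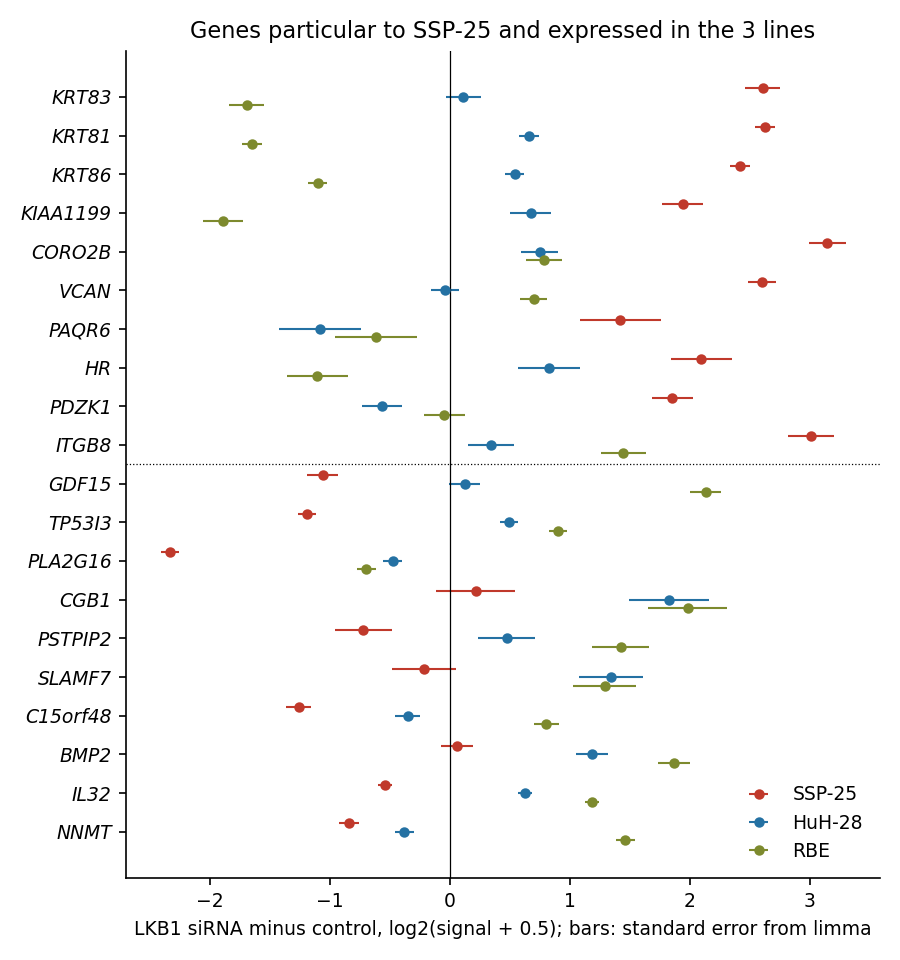
Responses to LKB1 siRNA in SSP-25, HuH-28 and RBE (log2(signal + 0.5), points with standard errors from limma, n = 2 libraries per group) for the 10 largest differences in each direction among genes particular to SSP-25 and expressed in all 3 lines. Above the dotted line SSP-25 lies to the right of both other lines, and below it to the left.

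Genes of the hair keratin cluster had the largest positive differences among genes expressed in all 3 lines. Type II hair keratins are the filament proteins of the hair shaft and nail, and they are not keratins of normal bile duct. KRT81 was 1159 and 1125 in SSP-25 cells with LKB1 siRNA, against 186 and 183 with control siRNA. In HuH-28 it was 121 and 128 with LKB1 siRNA, against 72.3 and 85.9 with control siRNA, and in RBE it was 1090 and 1046 with LKB1 siRNA, against 3551 and 3158 with control siRNA. The siRNA groups did not overlap in any line, and RBE moved the opposite way. The difference was 3.12 ± 0.10 (SE, limma adjusted p = 9.13e-07), and it was 2.70 ± 0.10 for KRT86 (adjusted p = 1.27e-06) and 3.40 ± 0.18 for KRT83 (adjusted p = 1.56e-05). KRT83 in HuH-28 was 21.97 and 19.0 with LKB1 siRNA, against 17.4 and 20.6 with control siRNA, so there the groups overlapped. KRT82 (3.60 ± 0.32, adjusted p = 0.000145), KRT85 (2.98 ± 0.30, adjusted p = 0.000311) and KRT84 (3.35 ± 0.56, adjusted p = 0.00357) showed the same order of lines at lower signal.

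**Figure D3:**
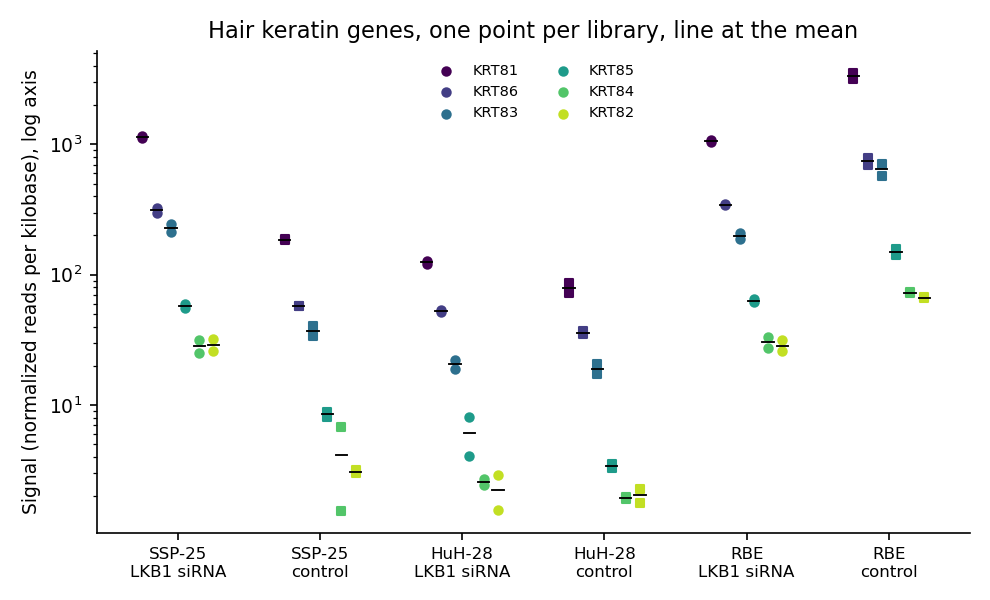
Signal of 6 hair keratin genes in each library (normalized reads per kilobase, log axis), with LKB1 siRNA as circles, control siRNA as squares and a line at each group mean. KRT81 stands at 1159 and 1125 in SSP-25 with LKB1 siRNA against 186 and 183 with control siRNA, and the other 5 genes lie below it in every library.

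These genes resemble each other in sequence, so their reads can be shared and their values are not independent. Of the stretches of 40 bases in the KRT81 coding sequence (GENCODE v29), 52.1% occur unchanged in KRT86, 15.2% in KRT83, 11.7% in KRT85, 1.96% in KRT82 and 1.35% in KRT84. With 2 mismatches allowed, a tolerance chosen after the data were seen, the share of a gene's own stretches found in KRT81 was 77.4% for KRT86, 64.1% for KRT83, 37.2% for KRT85, 3.19% for KRT82 and 1.76% for KRT84. Over the 12 libraries the signal of KRT82 was 1.23% to 3.16% of that of KRT81, and the signal of KRT84 was 0.827% to 3.7%. Whether that signal came from their own transcripts was not tested.

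Among the keratins of simple epithelium, KRT7 had a smaller difference of 0.45 ± 0.07 (limma adjusted p = 0.00233). Of 20 keratins tested, 6 were higher in SSP-25 and 1 was lower, beside 9.83% and 10.6% of all genes. That list was not limited to simple epithelium. It held hair keratins given above, so its counts partly repeat that result. Of its members 2 were higher and particular to SSP-25, beside 1.18% of all genes. SOX9, a transcription factor of bile duct progenitors, was 679 and 641 in SSP-25 cells with LKB1 siRNA, against 253 and 253 with control siRNA. In HuH-28 it was 246 and 217 with LKB1 siRNA against 208 and 188 with control siRNA, and in RBE 572 and 513 against 621 and 607. SOX9 thus rose with a difference of 1.36 ± 0.10 (limma adjusted p = 4.62e-05), while neither response in the other lines passed the test.

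Matrix and adhesion genes made up several of the other large positive differences. VCAN encodes versican, a chondroitin sulfate proteoglycan of the extracellular matrix. It was 195 and 205 in SSP-25 cells with LKB1 siRNA, against 29.2 and 36.05 with control siRNA. In HuH-28, where its signal was far higher, it was 3266 and 2696 with LKB1 siRNA against 3289 and 2829 with control siRNA, and in RBE 1400 and 1438 against 906 and 845. Only the HuH-28 groups overlapped, and the difference was 2.28 ± 0.14 (SE, limma adjusted p = 4.17e-05). ITGB8, an integrin subunit that activates latent TGF-β, was 296 and 291 in SSP-25 cells with LKB1 siRNA, against 33.7 and 38.5 with control siRNA. It was 289 and 250 against 225 and 200 in HuH-28, and 12.4 and 16.3 against 6.01 and 3.96 in RBE, LKB1 siRNA first in each. The siRNA groups did not overlap in any line, though the HuH-28 response of 0.34 did not pass the test (adjusted p = 0.211), and the SSP-25 response exceeded the mean of the others by 2.12 ± 0.23 (adjusted p = 0.000435).

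The integrin subunits ITGA6 (1.00 ± 0.10) and ITGA1 (0.85 ± 0.09) were also higher against each other line (limma adjusted p = 0.000263 and 0.000359). Of 32 integrin and adhesion genes, 7 were higher and 7 were lower, beside 9.83% and 10.6% of all genes, and the higher count was 4 without SSP-25 control replicate 1 or without SSP-25 LKB1 replicate 2. The matrix genes FN1 (fibronectin, 0.92 ± 0.09, adjusted p = 0.000228) and TNC (tenascin C, 0.67 ± 0.10, adjusted p = 0.00194) passed the test in the same direction. TNC rose in all 3 lines, with responses of 2.43 in SSP-25, 1.83 in HuH-28 and 1.69 in RBE. The collagen chains COL13A1 (1.24 ± 0.14, adjusted p = 0.000433) and COL6A3 (1.43 ± 0.24, adjusted p = 0.00363) fell in both HuH-28 and RBE, whereas neither of their responses in SSP-25 passed the test (0.14 for COL13A1 and 0.50 for COL6A3). Of 30 collagens, 3 were higher and 2 were lower, shares of 10% and 6.67%, beside 9.83% and 10.6% of all genes, and COL7A1 (-0.39) and COL27A1 (-0.32) were the lower ones. The lower count was 4 with a replicate block within each line and 0 after scaling to the same sum. Beside these genes, the fibroblast marker sum in SSP-25 was 547.8 to 576.2 with LKB1 siRNA and 266 to 276.3 with control siRNA, and its part in them was not tested. PDGFRB, a growth factor receptor on that list, had a difference of 1.68 ± 0.18 (adjusted p = 0.000349).

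The remaining large positive differences fell in genes of other functions. CORO2B, a coronin that binds actin, was 23.4 and 21.0 in SSP-25 cells with LKB1 siRNA, against 2.11 and 2.01 with control siRNA, and rose less in HuH-28 (110 and 94.6 against 67.2 and 54.8) and RBE (94.6 and 111 against 62.4 and 56.6). No siRNA groups overlapped, and the difference was 2.38 ± 0.19 (SE, limma adjusted p = 6.76e-05). KIAA1199, which takes part in hyaluronan breakdown, was 24.3 and 22.6 in SSP-25 cells with LKB1 siRNA, against 7.06 and 4.62 with control siRNA. It was 6512 and 6244 against 3992 and 4002 in HuH-28, and 26.8 and 26.0 against 114 and 86.3 in RBE, LKB1 siRNA first in each, so that RBE alone fell. Its difference was 2.55 ± 0.21 (adjusted p = 8.93e-05). PDZK1, a scaffold for membrane transporters, was 34.8 and 32.3 in SSP-25 cells with LKB1 siRNA, against 9.56 and 8.29 with control siRNA. Its responses were -0.57 in HuH-28 and -0.05 in RBE, and the difference was 2.16 ± 0.21 (adjusted p = 0.000235). PAQR6, a membrane progestin receptor (2.27 ± 0.42, adjusted p = 0.00541), and HR, a nuclear corepressor (2.24 ± 0.31, adjusted p = 0.00151), had low signal in SSP-25, at 14.5 and 17.3 for PAQR6 and 14.8 and 14.9 for HR with LKB1 siRNA.

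Among genes expressed in all 3 lines, GDF15 and TP53I3 had the largest negative differences, and both are known targets of p53. p53 is the tumor suppressor that halts the cell cycle or starts apoptosis after damage. TP53I3, an oxidoreductase, was 2518 and 2517 in SSP-25 cells with LKB1 siRNA, against 5998 and 5512 with control siRNA. In HuH-28 it was 136 and 143 with LKB1 siRNA against 106 and 92.9 with control siRNA, and in RBE 542 and 585 against 312 and 293. The groups did not overlap in any line, SSP-25 fell where both others rose, and the difference was -1.89 ± 0.09 (SE, limma adjusted p = 9.46e-06). GDF15, a stress-induced cytokine of the TGF-β family, was 13.5 and 13.1 in SSP-25 cells with LKB1 siRNA, against 23.8 and 33.5 with control siRNA. It was 363 and 356 against 349 and 312 in HuH-28, and 3920 and 4236 against 942 and 913 in RBE, LKB1 siRNA first in each. Its difference was -2.19 ± 0.16 (adjusted p = 4.62e-05), and the HuH-28 response of 0.12 did not pass the test on its own (adjusted p = 0.528).

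Of 26 p53 target genes tested, 15 were lower in SSP-25 and 2 were higher, beside 10.6% and 9.83% of all genes, and their median difference was -0.33 beside -0.01 over all genes. Those that were lower against each other line numbered 8, beside 3.93% of all genes. CDKN1A (p21, an inhibitor of cyclin-dependent kinases) was 378 and 349 in SSP-25 cells with LKB1 siRNA against 505 and 457 with control siRNA, and 7526 and 8044 against 4504 and 4328 in RBE. Its HuH-28 response was 0.08, and its difference was -0.85 ± 0.08 (limma adjusted p = 0.000226). SFN (14-3-3σ, -1.04 ± 0.10, adjusted p = 0.000226) and GADD45A (growth arrest, -1.08 ± 0.11, adjusted p = 0.000357) were also lower, GADD45A with responses of -1.15 in SSP-25, -0.06 in HuH-28 and -0.09 in RBE. BBC3 (PUMA, proapoptotic) differed by -0.88 ± 0.14 (adjusted p = 0.00323) with a SSP-25 response of -0.12 that did not pass the test, and it rose in both other lines. Over the list, the median response was -0.03 in SSP-25, 0.08 in HuH-28 and 0.54 in RBE. With HuH-28 as the only other line 8 members were lower and 5 were higher, beside 8% and 8.83% of all genes. With RBE as the only other line 18 were lower and 0 were higher, beside 11.2% and 8.99%. The 2 higher members, BTG2 (0.51) and ZMAT3 (0.46), were picked out after their values were seen, and that count became 0 after quantile normalization and 0 or 1 without any library other than HuH-28 LKB1 replicate 1 or SSP-25 control replicate 2.

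Cytokines and genes of the NF-κB pathway were lower in SSP-25 as well. NF-κB is a family of transcription factors that drives inflammatory genes. IL32, a proinflammatory cytokine, was 447 and 452 in SSP-25 cells with LKB1 siRNA, against 641 and 671 with control siRNA. It was 2730 and 2918 against 1755 and 1905 in HuH-28, and 2215 and 2308 against 1025 and 969 in RBE, LKB1 siRNA first in each. SSP-25 fell and both other lines rose, with no overlap, and the difference was -1.45 ± 0.07 (SE, limma adjusted p = 9.46e-06). The NF-κB subunit NFKB2 was 566 and 566 in SSP-25 cells with LKB1 siRNA, against 1104 and 1108 with control siRNA. Its responses of -0.02 in HuH-28 and -0.15 in RBE gave a difference of -0.88 ± 0.07 (adjusted p = 6.76e-05), and the subunit RELB differed by -1.26 ± 0.13 (adjusted p = 0.00029). CSF1, the growth factor of macrophages, differed by -0.93 ± 0.09 (adjusted p = 0.000263). Of 38 members of the list, 13 were lower and 2 were higher, beside 10.6% and 9.83% of all genes, with a median difference of -0.60 beside -0.01 over all genes. The lower count was 8 with HuH-28 as the only other line, beside 8% of all genes. The 2 higher members, named after their values were seen, were IL11 (1.99) and TGFA (0.44), and the count was 1 without SSP-25 LKB1 replicate 1. Beside this list, 6 leukocyte markers summed to 1628 to 1644 in SSP-25 cells with LKB1 siRNA and 1892 to 1973 with control siRNA, with PTPRC, CD3E and LYZ under 1 in both, and their part in the result was not tested. CXCL3, a neutrophil chemokine, was 43.0 and 37.1 in SSP-25 cells with LKB1 siRNA, against 56.8 and 104 with control siRNA. In RBE it was 11.8 and 11.7 with LKB1 siRNA, against 1.65 and 1.84 with control siRNA, and its difference of -1.92 ± 0.33 (adjusted p = 0.00413) did not hold against HuH-28 alone (adjusted p = 0.453).

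Several other genes fell in SSP-25 and rose in RBE. NNMT, which methylates nicotinamide, was 553 and 462 in SSP-25 cells with LKB1 siRNA, against 916 and 898 with control siRNA. In RBE it was 616 and 629 with LKB1 siRNA, against 229 and 222 with control siRNA, and HuH-28 fell slightly, with a response of -0.38. The difference was -1.38 ± 0.10 (SE, limma adjusted p = 4.62e-05). C15orf48, related to a subunit of the respiratory chain, showed the same signs in SSP-25 and RBE (-1.49 ± 0.13, adjusted p = 0.000121). PSTPIP2, an actin-associated adaptor (-1.67 ± 0.29, adjusted p = 0.00428), was under 11 in all 4 SSP-25 libraries. PLA2G16, a phospholipase, fell in all 3 lines. It was 182 and 174 in SSP-25 cells with LKB1 siRNA, against 886 and 912 with control siRNA, and the difference was -1.75 ± 0.10 (adjusted p = 1.83e-05).

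BMP2, SLAMF7 and CGB1 were lower in the contrast through responses of the other lines that SSP-25 did not show. BMP2, a bone morphogenetic protein, was 22.04 and 20.6 in SSP-25 cells with LKB1 siRNA, against 19.5 and 21.4 with control siRNA. It was 696 and 607 against 318 and 257 in HuH-28, and 62.1 and 74.9 against 18.6 and 18.0 in RBE, LKB1 siRNA first in each. The groups overlapped in SSP-25 alone, and the difference was -1.47 ± 0.17 (SE, limma adjusted p = 0.000516). DUSP1, a phosphatase that switches off MAP kinases and a CREB target, rose in all 3 lines and least in SSP-25, with responses of 0.23 in SSP-25, 0.77 in HuH-28 and 1.99 in RBE, and a difference of -1.15 ± 0.08 (adjusted p = 4.89e-05). SLAMF7, a receptor of lymphocytes, was 6.43 and 12.1 in SSP-25 cells with LKB1 siRNA, against 10.6 and 10.2 with control siRNA, and differed by -1.53 ± 0.32 (adjusted p = 0.0104). CGB1 belongs to the chorionic gonadotropin β genes, which are near-identical and may share reads. It differed by -1.69 ± 0.40 (adjusted p = 0.0173), and did not pass without SSP-25 control replicate 1, SSP-25 LKB1 replicate 1 or SSP-25 LKB1 replicate 2, the adjusted p reaching 0.0875.

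Genes of mitosis fell in all 3 lines on the median, and least in SSP-25. Of 44 genes of mitosis and the spindle, 30 were higher in SSP-25 and 0 were lower on the difference of responses, beside 9.83% and 10.6% of all genes. The median response was -0.17 in SSP-25, -0.35 in HuH-28 and -0.80 in RBE, and in those lines 20, 31 and 41 members fell at an adjusted p under 0.05, where 21.1% of all genes fell in SSP-25, 15.5% in HuH-28 and 18.6% in RBE. Against RBE alone 38 members were higher in SSP-25 (8.99% of all genes). Against HuH-28 alone 6 were higher (8.83% of all genes) and 1 was lower, and 6 were higher against each of them. PRC1, which bundles microtubules of the central spindle, was 2021 and 1961 in SSP-25 cells with LKB1 siRNA, against 909 and 849 with control siRNA. It was 1348 and 1381 against 877 and 949 in HuH-28, and 1521 and 1357 against 1133 and 1091 in RBE, LKB1 siRNA first in each. PRC1 thus rose in all lines, unlike most of the list, with a difference of 0.70 ± 0.08 (SE, limma adjusted p = 0.000536). PLK1, a kinase of mitotic entry, was 1871 and 1922 in SSP-25 cells with LKB1 siRNA against 1689 and 1606 with control siRNA, and 1002 and 926 against 1468 and 1467 in RBE. Its HuH-28 response was -0.05, and its difference was 0.53 ± 0.06 (adjusted p = 0.000602). KIF18A, a kinesin of chromosome alignment, differed by 0.59 ± 0.06 (adjusted p = 0.000379). Of 49 genes of DNA replication, 12 were higher and 0 were lower, beside 9.83% and 10.6% of all genes, a count of 4 without SSP-25 LKB1 replicate 2, 5 without SSP-25 LKB1 replicate 1, 6 without SSP-25 control replicate 1, 7 without RBE LKB1 replicate 2, 21 after quantile normalization, 19 after scaling to the same sum and 24 with a replicate block within each line. Against RBE alone 21 replication genes were higher and 0 were lower, beside 8.99% and 11.2% of all genes. Against HuH-28 alone 5 were higher and 3 were lower, beside 8.83% and 8%. Those higher against each other line numbered 3, beside 3.95% of all genes. RRM2, a subunit of ribonucleotide reductase, had responses of 0.00 in SSP-25, -0.28 in HuH-28 and -0.69 in RBE (difference 0.48 ± 0.05, limma adjusted p = 0.00032).

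**Figure D4:**
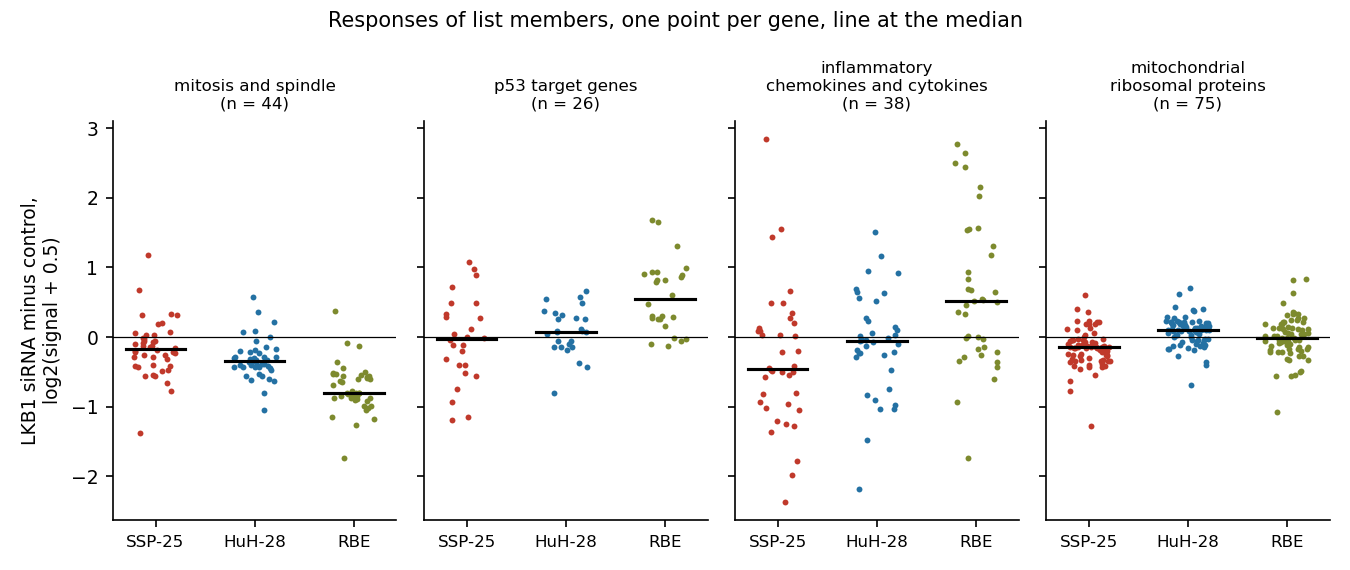
Responses to LKB1 siRNA in SSP-25, HuH-28 and RBE (log2(signal + 0.5)) of the members of 4 gene lists, 1 point per gene with sideways scatter for legibility and a line at the median. The medians of the mitosis list are -0.17 in SSP-25, -0.35 in HuH-28 and -0.80 in RBE, and those of the p53 list are -0.03, 0.08 and 0.54.

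The promoters of the mitotic list share sequence features. These were counted over its members whatever they did in SSP-25, so the shares describe the list and not the contrast between lines. RefSeq windows of 300 bases (GRCh38.p14), which end 50 bases past the annotated start, were found for 38 of the 44 genes. The box CCAAT, bound by NF-Y, occurred on either strand in 78.9% of these, against 36.3% of the 12961 windows found for all genes tested. The word TTTGAA, known in cell cycle genes as the CHR element and searched after the data were seen, occurred in 68.4%, against 10.8%, and both words together in 57.9%, against 4.46%. The 100 bases before the start are shown for 4 of the 6 mitotic genes that were higher against each other line, those with both words in this stretch, picked after the data were seen, with CCAAT and TTTGAA in capitals and ATTGG and TTCAAA marking the same words on the other strand. They lie at chr16:23678789-23678888 on the plus strand (PLK1), chr10:92593030-92593129 on the plus strand (KIF11), chr11:28108157-28108256 on the minus strand (KIF18A) and chr15:90994536-90994635 on the minus strand (PRC1).
PLK1: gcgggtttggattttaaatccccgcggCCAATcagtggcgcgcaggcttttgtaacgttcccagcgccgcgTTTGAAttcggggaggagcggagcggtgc
KIF11: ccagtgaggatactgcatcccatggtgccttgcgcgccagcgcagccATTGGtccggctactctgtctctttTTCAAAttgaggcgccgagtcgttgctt
KIF18A: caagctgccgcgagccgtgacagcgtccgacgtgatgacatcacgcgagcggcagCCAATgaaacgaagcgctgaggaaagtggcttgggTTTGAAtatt
PRC1: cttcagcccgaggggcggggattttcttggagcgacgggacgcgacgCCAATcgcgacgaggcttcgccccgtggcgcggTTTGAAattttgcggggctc
CDK1 and CENPE, the other genes higher against each line, held neither word in these 100 bases. A match is a description of these letters and no evidence of binding. For the genes particular to SSP-25 a window was found for 76.7% of the higher and 79.1% of the lower ones, against 80.4% of all genes. CCAAT occurred in 33.8% and 25% of these windows, against 36.3%, and TTTGAA in 12.4% and 5.88%, against 10.8%. The word TGACTCA, picked after the shares were seen, occurred in 2.07% and 13.2%, against 3.58%. These were 3 of 145 and 9 of 68 windows. Among genes expressed in all 3 lines it occurred in 1 of 71 and 2 of 25 windows, against 2.89%. These shares were described and not tested.

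The longest annotated 3′ UTR (GENCODE v29) was found for 97.4% of the higher and 96.5% of the lower genes particular to SSP-25. Its median length was 1714 and 764 bases, against 1230 over all genes tested. The 7-base word CAGTACA occurred in the 3′ UTR of 14.1% of the higher and 7.23% of the lower genes, against 8.69% of all genes. GCAGTAC occurred in 6.52% and 2.41%, against 4.97%, and GAAGGAA in 20.7% and 25.3%, against 20.9%. The words came from earlier results of these data. A longer UTR has more places for any word, and the shares were not adjusted for length.

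Genes of ribosomal proteins were lower on the difference of responses, by small differences whose counts moved with single libraries and settings. Of 75 mitochondrial ribosomal proteins, 25 were lower and 0 were higher, beside 10.6% and 9.83% of all genes, with a median difference of -0.18. The median response of this list was -0.14 in SSP-25, 0.10 in HuH-28 and -0.02 in RBE. MRPL4 was 727 and 715 in SSP-25 cells with LKB1 siRNA against 855 and 842 with control siRNA, and 1042 and 971 against 771 and 782 in HuH-28. Its RBE response was 0.15, and its difference was -0.49 ± 0.06 (SE, limma adjusted p = 0.000603). The count of 25 became 5 without SSP-25 LKB1 replicate 2, 9 without SSP-25 control replicate 1, 12 without SSP-25 control replicate 2, 13 without SSP-25 LKB1 replicate 1, and 15 without RBE control replicate 2 or RBE LKB1 replicate 2. It was 15 after quantile normalization, 7 after scaling to the same sum and 39 with a replicate block within each line. Of 77 cytosolic ribosomal proteins, 15 were lower and 0 were higher, beside 10.6% and 9.83% of all genes, and the lower count was 4 to 8 without any 1 of the 4 SSP-25 libraries, RBE LKB1 replicate 1, RBE LKB1 replicate 2 or RBE control replicate 2, 6 after quantile normalization, 7 after scaling to the same sum and 47 with a replicate block within each line. The median response of the cytosolic list was 0.05 in SSP-25, 0.25 in HuH-28 and 0.31 in RBE. RPL13 had responses of -0.14 in SSP-25, 0.28 in HuH-28 and 0.45 in RBE (difference -0.50 ± 0.06, limma adjusted p = 0.00077). Ribosomal protein genes have many processed copies, whose reads could not be told apart here.

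Genes of cholesterol synthesis differed upward. Of 33 genes of cholesterol and fatty acid synthesis, 10 were higher and 0 were lower, beside 9.83% and 10.6% of all genes, a count of 5 without SSP-25 control replicate 1, 6 without SSP-25 LKB1 replicate 2, 17 after scaling to the same sum and 16 with a replicate block within each line. MSMO1, a sterol oxidase, was 1401 and 1503 in SSP-25 cells with LKB1 siRNA, against 456 and 488 with control siRNA. In HuH-28 it was 402 and 444 against 247 and 216, and in RBE 2879 and 2649 against 1273 and 1505, LKB1 siRNA first in each. It rose in all 3 lines without overlap and most in SSP-25, with a difference of 0.69 ± 0.12 (SE, limma adjusted p = 0.00395). Genes of unfolded protein and amino acid stress went both ways, with 12 higher and 9 lower of 37, beside 9.83% and 10.6% of all genes. The higher count was 7 without either SSP-25 LKB1 library, and the lower count was 5 without SSP-25 LKB1 replicate 2. PHGDH and PSAT1, successive enzymes of serine synthesis, differed by 0.68 ± 0.08 (adjusted p = 0.000536) and 0.71 ± 0.07 (adjusted p = 0.000235). PSAT1 was 1340 and 1336 in SSP-25 cells with LKB1 siRNA, against 901 and 972 with control siRNA.

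SLC7A11, the cystine transporter, was 2410 and 2390 in SSP-25 cells with LKB1 siRNA, against 2375 and 2746 with control siRNA. It was 84.4 and 83.4 against 216 and 221 in HuH-28, and 92.1 and 92.1 against 169 and 188 in RBE, LKB1 siRNA first in each. It fell in both other lines, the SSP-25 groups overlapped, and the difference was 1.07 ± 0.09 (SE, limma adjusted p = 0.000113). Of 33 NRF2 targets and glutathione genes, 5 were higher and 10 were lower, beside 9.83% and 10.6% of all genes, and the lower count was 4 without SSP-25 control replicate 1, 6 without SSP-25 LKB1 replicate 1, 5 without SSP-25 LKB1 replicate 2 and 5 after scaling to the same sum. The NRF2 targets NQO1 (0.54 ± 0.08, adjusted p = 0.00224) and SRXN1 (-0.75 ± 0.07, adjusted p = 0.000227), both of the oxidative stress response, fell in all 3 lines, NQO1 least and SRXN1 most in SSP-25. NUPR1, a stress-induced chromatin protein, was 58.4 and 74.0 in SSP-25 cells with LKB1 siRNA, against 204 and 189 with control siRNA, and its difference was -1.32 ± 0.14 (adjusted p = 0.000435). SQSTM1, the autophagy receptor p62, fell in all lines and most in SSP-25 (-0.72 ± 0.07, adjusted p = 0.000269). HK1, the hexokinase of most tissues, was 1294 and 1268 in SSP-25 cells with LKB1 siRNA, against 2621 and 2588 with control siRNA, and differed by -0.87 ± 0.06 (adjusted p = 4.62e-05), whereas HK2 differed by 0.69 ± 0.12 (adjusted p = 0.00431).

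AREG, HBEGF and NRG1, ligands of the EGF receptor family, were lower in SSP-25, whereas the ligand TGFA was higher, as given above. AREG (amphiregulin) was 34.5 and 30.1 in SSP-25 cells with LKB1 siRNA, against 75.1 and 73.9 with control siRNA. In RBE, where its signal was far higher, it was 4779 and 4794 with LKB1 siRNA, against 2784 and 2693 with control siRNA. HuH-28 stayed under 3 in all 4 libraries, and the difference was -1.53 ± 0.25 (SE, limma adjusted p = 0.00332). HBEGF differed by -0.74 ± 0.09 (adjusted p = 0.000554), NRG1 by -0.59 ± 0.12 (adjusted p = 0.00696) and ERRFI1, a feedback inhibitor of the receptors, by -0.63 ± 0.06 (adjusted p = 0.000269). Of 17 members of the list, 9 were lower and 1 was higher, beside 10.6% and 9.83% of all genes. Those lower against each other line numbered 4, beside 3.93% of all genes. The lower count was 4 without RBE LKB1 replicate 2, SSP-25 control replicate 2 or SSP-25 LKB1 replicate 1, 5 without RBE LKB1 replicate 1, SSP-25 control replicate 1 or SSP-25 LKB1 replicate 2, and 4 after scaling to the same sum.

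Among partners and substrates of LKB1, 1 of 22 genes was higher and 5 were lower, beside 9.83% and 10.6% of all genes, STK11 itself included. The lower count was 3 without any SSP-25 control or RBE library, without SSP-25 LKB1 replicate 2, after quantile normalization or after scaling to the same sum, which also gave 3 higher. PRKAB1, a regulatory subunit of AMPK, was 469 and 452 in SSP-25 cells with LKB1 siRNA, against 610 and 584 with control siRNA, and differed by -0.49 ± 0.08 (limma adjusted p = 0.00345). NUAK2 (-0.67 ± 0.07, adjusted p = 0.000441) and SIK2 (0.51 ± 0.11, adjusted p = 0.00921) are AMPK-related kinases that LKB1 activates. SIK2 rose in all 3 lines, and its adjusted p was 0.0524 without SSP-25 LKB1 replicate 2.

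Of the Wnt and β-catenin genes, LGR4, a receptor of R-spondins that strengthens Wnt signaling, moved in opposite directions. It was 210 and 206 in SSP-25 cells with LKB1 siRNA, against 109 and 121 with control siRNA. It was 109 and 104 against 181 and 145 in HuH-28, and 1255 and 1130 against 1665 and 1594 in RBE, LKB1 siRNA first in each. The groups did not overlap in any line, and the difference was 1.38 ± 0.12 (SE, limma adjusted p = 0.000172). AXIN2, a feedback target of β-catenin, was 57.4 and 57.4 in SSP-25 cells with LKB1 siRNA, against 26.7 and 25.9 with control siRNA, with responses of -0.12 in HuH-28 and -0.15 in RBE and a difference of 1.24 ± 0.15 (adjusted p = 0.000645). MYC differed the other way, by -0.70 ± 0.07 (adjusted p = 0.000234), with responses of -0.39 in SSP-25, 0.11 in HuH-28 and 0.52 in RBE. WNT5A had a difference of 1.03 ± 0.15 (adjusted p = 0.00212), which held against RBE and missed the threshold against HuH-28 alone (adjusted p = 0.0551). Of 28 β-catenin target genes, 6 were higher and 4 were lower, and of 16 receptors and coreceptors 6 were higher and 1 was lower, each beside 9.83% and 10.6% of all genes. The receptors gave 3 higher without SSP-25 LKB1 replicate 2. The 4 lower β-catenin targets were 2 without SSP-25 control replicate 2 or SSP-25 LKB1 replicate 2 and after quantile normalization or scaling to the same sum.

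Of the genes that the study singled out from its sequencing, CD24 and VCL differed between the lines, as did WNT5A and MYC above and, narrowly, CDH2 below. CD24, a surface sialoglycoprotein, was 2944 and 3525 in SSP-25 cells with LKB1 siRNA, against 591 and 586 with control siRNA. It was 641 and 652 against 276 and 297 in HuH-28, and 1586 and 1305 against 703 and 642 in RBE, LKB1 siRNA first in each. It rose in all 3 lines without overlap, and the SSP-25 response exceeded the mean of the others by 1.32 ± 0.13 (SE, limma adjusted p = 0.00023). VCL (vinculin, which links adhesions to actin) fell in all 3 lines and furthest in SSP-25, by a difference of -0.58 ± 0.09 (adjusted p = 0.00263). HIF1A, the hypoxia-inducible factor, had a difference of 0.02 with a 95% confidence interval of -0.16 to 0.20, and TLN1 (talin) 0.19 with an interval of -0.01 to 0.39. Neither passed the test, and the same held for CCND1 (0.29, 0.05 to 0.52, adjusted p = 0.0839), but with a replicate block within each line TLN1 (adjusted p = 0.0477) and CCND1 (adjusted p = 0.0164) did. The intervals were wider for the low genes CA9 (-1.27 to 2.03), WNT2B (-0.89 to 0.99) and WNT4 (-1.26 to 0.49), and ran from -0.65 to 0.32 for WNT5B, from -0.15 to 0.46 for FZD1, from -0.20 to 0.35 for FZD2 and from -0.53 to 0.16 for FZD7. CDH1 (E-cadherin) had no difference past the test against the mean of the others (-0.20, -0.56 to 0.16), and its responses were 0.19 in SSP-25, 1.57 in HuH-28 and -0.80 in RBE. The study lists CDH1 as lower with LKB1 siRNA in all 3 lines and reports less E-cadherin protein by Western blot. In the signal used here the response was negative in RBE alone, and the reason for this disagreement was not tested. CDH2 (N-cadherin) passed narrowly at 0.20 ± 0.06 (adjusted p = 0.0446) and lost the call in 14 of 28 settings, among them a replicate block shared by the lines (adjusted p = 0.0536), quantile normalization (adjusted p = 0.0552) and the fits without any 1 SSP-25 or RBE library (adjusted p up to 0.192).

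Some of the largest differences belonged to genes with little or no signal in 1 of the lines. C1orf110 was 37.5 and 32.2 in SSP-25 cells with LKB1 siRNA, against 3.43 and 2.06 with control siRNA, and was listed at or near 0 in all RBE libraries. ADAMTS5, a protease of matrix proteoglycans, was 8.82 and 8.88 in SSP-25 cells with LKB1 siRNA, against 0.441 and 0.751 with control siRNA. It was 669 and 567 against 775 and 682 in HuH-28, and near 0 in RBE. RGS16, a regulator of G protein signaling, was 1.24 or less in all SSP-25 libraries, and was 43.9 and 41.6 with LKB1 siRNA against 10.9 and 12.6 with control siRNA in HuH-28 and 8.98 and 9.38 against values at or near 0 in RBE. FAM25B, FAM25C and FAM25G carried identical values, so their reads were not separated. They are 1 measurement, though they entered the gene counts as separate rows. That measurement was 0.0726 and 0 in SSP-25 cells with LKB1 siRNA, against 3.44 and 2.99 with control siRNA, and 44.3 and 73.8 against 17.0 and 21.5 in RBE. LTC4S, which makes leukotriene C4, was 0.105 and 0 against 1.62 and 1.73 in SSP-25, and 8.66 and 10.0 against 2.84 and 1.60 in RBE. Where a group is listed at or near 0 the fitted difference depends on the added 0.5, and no fold is given for these genes.

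Opposite responses at low SSP-25 signal were seen for 3 further genes. SGK2, a kinase related to AKT, was 1.51 and 0.738 in SSP-25 cells with LKB1 siRNA, with control siRNA near 0, and 277 and 254 against 409 and 391 in RBE. AMH, anti-Müllerian hormone, was 2.59 and 3.58 in SSP-25 cells with LKB1 siRNA, against 0.536 and 1.16 with control siRNA, and 110 and 74.1 against 233 and 175 in HuH-28. Its difference was 2.20 ± 0.33 (SE, limma adjusted p = 0.00206). MT1M, a metallothionein with close paralogs, was 0.172 and 2.02 against 4.31 and 2.28 in SSP-25 and differed from HuH-28 but not from RBE at the threshold (adjusted p = 0.197).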

How the data were processed

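RNA sequencing libraries of 12 samples were used. Per the labels and the study's methods, RNA was extracted 48 h after transfection, and libraries were made with a TruSeq kit. The sources name TopHat 1.2.0 and edgeR with hg19 (GRCh37) in the submitters' processing notes and a commercial aligner with an earlier build in the methods, and do not say which made the table. The authors deposited 1 table of normalized signal, reads per kilobase of gene, with 18815 rows, not counts, so depth is unknown and no counting interval is given. Of these, 23 rows repeated a symbol and its values and were dropped, and 28 rows with a date as symbol and 10 with a symbol used for different values were tested but not named. Rows of different symbols with identical values numbered 108 and were not merged, so gene counts can hold such rows more than once. Values under 1e-06 were taken as 0.

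Differences were tested with limma 3.58.1 in R 4.3.3 on log2(signal + 0.5), fitting 1 mean per group for 6 groups, with a variance trend, 6 residual degrees of freedom and Benjamini-Hochberg adjustment over 16146 genes. With 2 libraries against 2, an exact permutation test of a single gene could not go below a two-sided p of 0.33, so the spread was pooled over genes. The procedure was tested on simulated data. The named genes were the 10 largest differences in each direction among genes particular to SSP-25 with a group mean of at least 10 in every line, the 5 largest in each direction among those that failed that rule but averaged at least 10 over all libraries, the 8 largest in each direction among opposite responses with that average, up to 4 genes of the smallest p in each of 43 gene lists, and 16 genes that the study names from its sequencing. Members and lists were chosen with earlier results of these data known. Sequences and UTRs were read from GENCODE v29 and RefSeq with Python 3.11.15. Alternatives for the pseudocount, filter, scaling, variance model, replicate block, choice of other line and each library left out are described in the closing section. Some genes and sequences are not reported here.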

Additional observations from a re-analysis of the deposited data

Results flagged for a closer look

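The contrast itself tests whether the lines differ, so each gene named for its size or by the study that passed the test is given here with its difference of responses on the log2(signal + 0.5) scale. Genes named only from the lists are given with their tests in the text above. Groups of 2 libraries are too small for a test of outlying samples.

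Higher in SSP-25 against the mean of HuH-28 and RBE were KRT83 (3.40), KRT81 (3.12), KRT86 (2.70), KRT82 (3.60), KRT84 (3.35) and KRT85 (2.98), whose reads may be shared. Also higher were C1orf110 (3.75), ADAMTS5 (3.23), SGK2 (2.66), KIAA1199 (2.55), CORO2B (2.38), VCAN (2.28), PAQR6 (2.27), HR (2.24), AMH (2.20), PDZK1 (2.16), ITGB8 (2.12), CD24 (1.32), WNT5A (1.03) and CDH2 (0.20).

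Lower in SSP-25 were STK11 (-1.14), FAM25B, FAM25C and FAM25G (-3.59, with identical values), MT1M (-3.12), LTC4S (-3.03), RGS16 (-3.02), GDF15 (-2.19), CXCL3 (-1.92), TP53I3 (-1.89), PLA2G16 (-1.75), CGB1 (-1.69), PSTPIP2 (-1.67), SLAMF7 (-1.53), C15orf48 (-1.49), BMP2 (-1.47), IL32 (-1.45), NNMT (-1.38), MYC (-0.70) and VCL (-0.58). For FAM25, MT1M, LTC4S, RGS16, C1orf110, ADAMTS5 and SGK2 some groups are listed at or near 0, and these values depend on the pseudocount.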

How the results depend on the processing

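Of 162 named genes past the test, 112 stayed past it under every alternative, and 130 did so under those that changed no library and no line. With an added value of 10 the counts above 1 in size were 120 higher and 75 lower, with 111 higher particular to SSP-25 and 29 opposite and up. With a mean of at least 20 they were 212 and 109. Scaling to the same sum gave 51 lower genes particular to SSP-25 and 18 opposite and down, and moved the median difference over all genes to 0.09, against -0.01. With HuH-28 as the only other line 16 genes were opposite and down, and NLRC5 turned to 0.0187 (adjusted p = 0.953 with limma). With RBE alone 337 were lower by more than 1 and 67 opposite and down, and COL27A1 (0.12, adjusted p = 0.43), CDH1 (0.98, adjusted p = 0.00584) and CDH2 (-0.0886, adjusted p = 0.425) turned. With no limit on size the counts were 1587 higher, 1708 lower, 637 and 634 particular, and 138 and 189 opposite, and with a limit of 2 they were 78, 34, 50, 16, 12 and 7.

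With single libraries left out, 264 to 390 genes were higher and 133 to 207 lower, 145 to 196 and 55 to 78 were particular, and 32 to 52 and 25 to 33 were opposite. The lowest of 55, against 86, came without SSP-25 control replicate 1. The STK11 response was -2.89 to -2.66 in SSP-25, -1.70 to -1.48 in HuH-28 and -1.81 to -1.55 in RBE. Where a group keeps 1 library, that library is assumed to vary like the others.

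Over 12230 genes the deviations of same-numbered libraries correlated at 0.033 in SSP-25, 0.431 in HuH-28 and 0.002 in RBE. The study calls the numbers a first and a second test, and whether they mark a shared run is not stated, so the reported fit has no replicate block. A replicate block within each line gave 401 higher and 209 lower genes, 222 and 100 particular and 54 and 33 opposite, and a block shared by the lines 375 and 182, 187 and 83, and 48 and 26. Of 11 named genes not past the test, 8 changed sign under some alternative. Depth limits could not be set, since the table holds no counts.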
